A study of Mus musculus with 9 samples.

Results

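The neighbouring hairpins mir-191 and mir-425 gave 16 of the 1308 entries of a small RNA sequencing table of extracellular vesicles (EVs) from mouse bronchoalveolar lavage fluid (BALF). All entries of either name were taken, whatever their values: both arms (5p and 3p, the strands cut from the left and right side of the hairpin) and the isomiRs, whose name carries the shift of their 5′ end in bases. They were 9 entries of miR-191 and 7 of miR-425, and 4 of the 16 had the mean above 50 RPMMM required for testing. RPMMM scales the reads of an entry to a common total of miRNA reads per library, so that each value is a share of that total.

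The mice were female C57BL/6J of 8 to 10 weeks of age, held in a whole-body chamber for 3 h in filtered air (FA), 1 ppm ozone (O3) or 2 ppm O3, and lavaged 21 h later. Cells and debris were spun out of the fluid, and EV RNA was isolated from 3 pools per exposure, of 4 mice each for FA and 3 mice each for either O3 concentration. The exposure records of the study list a single exposure at each O3 concentration and do not tie pools to exposures, so that chamber run and concentration cannot be told apart. Neither can pool size and exposure to O3, and a pool shows neither single mice nor the cells that shed the EVs. Protein markers of EVs were not analysed here. The pools held between 535482 and 773323 miRNA reads in FA, between 555038 and 861151 after 1 ppm O3 and between 281378 and 300739 after 2 ppm O3, as estimated from the steps between low values. The lowest value above 0 was between 11.81 and 18.92 RPMMM in the FA and 1 ppm O3 pools and between 34.34 and 37.3 RPMMM after 2 ppm O3. An entry listed at 0 is bounded only by this minimum. The estimate took this lowest value to be about 10 reads, which was assumed and not measured. All read numbers and counting errors given here rest on it. The analyses below asked whether this pair, which is often chosen as a reference, was even across the exposures.

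A miRNA is cut from a hairpin of its transcript, loaded into an Argonaute protein and guided to messenger RNAs mainly by its seed, bases 2 to 8 from the 5′ end. A shift of the 5′ end changes the seed and with it the sites that can be matched. miR-191 and miR-425 are processed from a shared transcript of the *Dalrd3* locus and are found in many cell types. Because miR-191-5p varies little between many tissues, it has been widely used to normalise RT-qPCR of miRNAs, also in body fluids.

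The hairpins are shown because the position and the 5′ ends of the arms define the entries. They are given as RefSeq lists them for GRCm38.p6, 5′ to 3′, with the mature 5p and 3p arms in capitals.
Mir191: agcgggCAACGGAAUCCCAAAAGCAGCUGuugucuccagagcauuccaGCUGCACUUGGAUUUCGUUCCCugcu
Mir425: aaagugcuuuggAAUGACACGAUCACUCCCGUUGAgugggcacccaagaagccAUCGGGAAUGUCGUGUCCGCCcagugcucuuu

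Each hairpin had 1 exact match in mm9, the build to which the reads were aligned, on the plus strand. Mir191 lay at chr9:108470650-108470723 and Mir425 at chr9:108471108-108471192, with 384 bases between them. In the mm9 annotation both lay outside protein-coding genes, 1499 and 1030 bases before the start of *Dalrd3*, while the RefSeq gene table of GRCm38.p6 places both inside *Dalrd3*. The mm9 annotation does not use the name Mir191 there. It holds a miRNA gene named CT010508.1 on the minus strand that overlaps the hairpin, and whether reads were assigned by strand is not given in the sources used here.

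The mature arms are shown with the seed in capitals, together with the tested shifted forms of miR-191-5p and the most abundant shifted form of each miR-425 arm. The 3′ ends of the isomiRs are not part of their names and were drawn at the annotated end.
miR-191-5p: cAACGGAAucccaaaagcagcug
miR-191-5p_+_1: aACGGAAUcccaaaagcagcug
miR-191-5p_+_2: aCGGAAUCccaaaagcagcug
miR-191-3p: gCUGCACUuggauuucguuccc
miR-425-5p: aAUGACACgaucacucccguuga
miR-425-5p_+_1: aUGACACGaucacucccguuga
miR-425-3p: aUCGGGAAugucguguccgcc
miR-425-3p_-_1: cAUCGGGAaugucguguccgcc

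The members share a transcript but no seed, and none of the 4 arms has the seed of another. Among the 1679 mature miRNAs named in the RefSeq table, the seed of miR-425-5p is found in 1 other, miR-489-3p, and that of miR-191-5p in 0 others. The seeds of the shifted forms shown above occur in 0 of these mature miRNAs.

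miR-191-5p was level between FA and 1 ppm O3 and fell after 2 ppm O3. Its level was 8109.63, 6570.8 and 6266.64 RPMMM in the FA pools. The 1 ppm O3 pools held 6265.04, 7149.98 and 7387.07 RPMMM. The 2 ppm O3 pools held 2455.83, 2905.79 and 2879.42 RPMMM. All pools of 2 ppm O3 lay below all others, while the FA and 1 ppm O3 pools overlapped. The means were 6982 ± 988 RPMMM (SD, n = 3 pools) for FA, 6934 ± 591.4 RPMMM for 1 ppm O3 and 2747 ± 252.5 RPMMM after 2 ppm O3, which placed the entry at rank 33, 31 and 72 of all entries. The log2 fold change of the 1 ppm O3 pools from FA was -0.0044 (95% confidence interval from -0.30 to 0.29, adjusted p = 0.995 from limma), and that of the 2 ppm O3 pools was -1.34 (standard error 0.129, interval from -1.63 to -1.05, adjusted p = 1.78e-05 from limma). Between 2 ppm and 1 ppm O3 it was -1.34 (interval from -1.63 to -1.05, adjusted p = 5.20e-05 from limma). These levels are shares of a total that itself shifted, as given below. From such shares in bulk pools, a gain of other entries, fewer EVs that carry a miRNA and less of it per EV cannot be told apart.

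An entry was called where it differed by 2-fold or more and its adjusted p was below 0.05. Of the 4 tested members, miR-191-5p was the one called, lower after 2 ppm O3 than in FA and than after 1 ppm O3, and 0 were called after 1 ppm O3 against FA. Over all 461 entries tested, 13.2% were called after 1 ppm O3 against FA, 43.6% after 2 ppm O3 against FA (29.3% of all were lower) and 33.6% between the concentrations (22.3% of all were lower). A share of 1 in 4 lower members was thus near that of all entries in RPMMM. Median-of-ratios scaling holds even the middle ratio of the entries, isomiRs included, that were above 0 in all pools. Under it, 7.42% of entries were called lower after 2 ppm O3 than in FA. The share was 5.01% when the total left out miR-2137 and the unmatched hairpins described below. miR-191-5p was called in neither setting. The values of miR-191-5p rested on between 3356 and 6361 reads in the FA and 1 ppm O3 pools and between 739 and 841 reads after 2 ppm O3, for which counting error alone is at most 3.68%.

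miR-425-5p, the leading product of the neighbouring hairpin, did not pass the thresholds in any comparison. The FA pools held 981.45, 854.81 and 939.25 RPMMM, with a mean of 925.2 ± 64.48 RPMMM (SD, n = 3 pools). In the 1 ppm O3 pools the level was 1011.73, 906.13 and 1109.22 RPMMM, with a mean of 1009 ± 101.6 RPMMM. In the 2 ppm O3 pools it was 571.59, 818.87 and 831.15 RPMMM, with a mean of 740.5 ± 146.4 RPMMM. The 2 ppm O3 pools lay below those of the other exposures, but 2 of them were close to the lowest FA pool. In log2 the 1 ppm O3 pools differed from FA by 0.12 (interval from -0.29 to 0.53, adjusted p = 0.779 from limma) and the 2 ppm O3 pools by -0.34 (interval from -0.75 to 0.073, adjusted p = 0.137 from limma). Between the concentrations it was -0.46 (interval from -0.87 to -0.050, adjusted p = 0.0662 from limma). None of these intervals holds a change of 2-fold. The 2 ppm O3 values rested on between 172 and 237 reads, with a counting error of up to 7.62% against a spread of 19.8% between those pools. Without the lowest of them, pool 1, the log2 fold change against FA was -0.16.

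**Figure D1:**
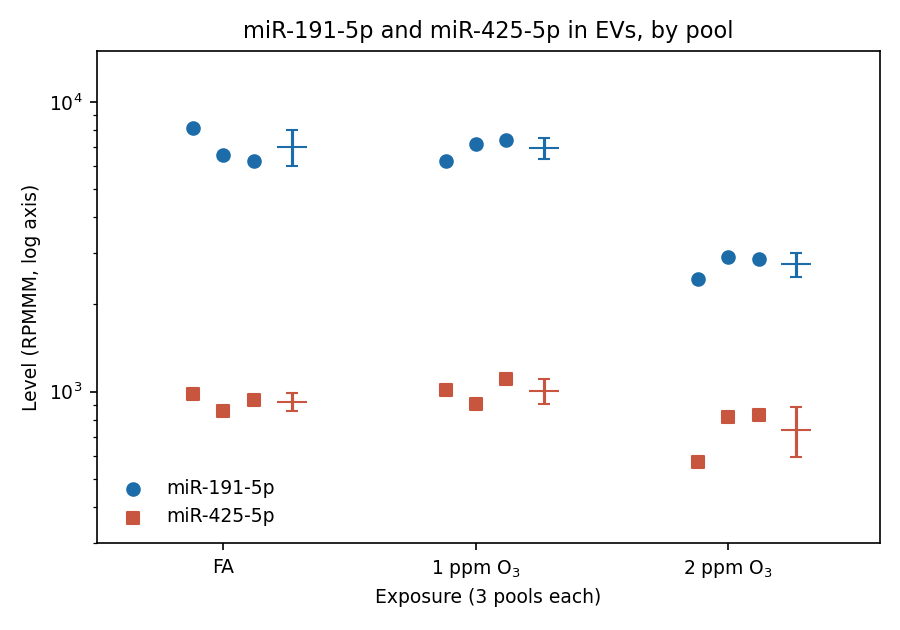
Level of miR-191-5p (circles) and miR-425-5p (squares) in RPMMM on a log axis for each of the 3 pools of FA, 1 ppm O3 and 2 ppm O3, with the mean and SD to the right of the points. The miR-191-5p pools of 2 ppm O3 lie at 2906 RPMMM and below, all others at 6265 RPMMM and above, while the miR-425-5p pools of the 3 exposures lie between 572 and 1109 RPMMM.

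The ratio of both miRNAs within a pool does not depend on how the pools are scaled. miR-191-5p was above miR-425-5p by 8.26, 7.69 and 6.67 times in the FA pools. The ratio was 6.19, 7.89 and 6.66 in the 1 ppm O3 pools. After 2 ppm O3 it was 4.30, 3.55 and 3.46, below every other pool. Both mature miRNAs are 23 bases long, and the ratio is one of reads, which need not be that of molecules. The mean log2 ratio was 2.91 ± 0.157 (SD, n = 3 pools) in FA, 2.78 ± 0.179 after 1 ppm O3 and 1.91 ± 0.170 after 2 ppm O3. The difference from FA was -0.13 after 1 ppm O3 (exact permutation test, two-sided, p = 0.4) and -1.0 after 2 ppm O3 (two-sided exact permutation test, p = 0.1, where 3 pools against 3 allow no smaller p). With all entries of each 5p arm summed, isomiRs included, the difference after 2 ppm O3 was -0.84. In the fit over all entries, with the pools scaled to miR-425-5p, a setting chosen after seeing the data, miR-191-5p differed by -1.0 in log2 between 2 ppm O3 and FA (interval from -1.35 to -0.65, adjusted p = 0.00075 from limma) and was called, where 35.3% of entries were called. For 1 ppm O3 it was -0.13 (interval from -0.47 to 0.22, adjusted p = 0.709 from limma).

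Across the order FA, 1 ppm and 2 ppm O3, miR-191-5p was compared in the 27 pairs formed by pools of unlike exposure, and fell in 23 and rose in 4 (exact permutation test, two-sided, p = 0.0417). miR-425-5p fell in 20 and rose in 7 (exact permutation test, two-sided, p = 0.189). The ratio of miR-191-5p to miR-425-5p fell in 25 and rose in 2 (exact permutation test, two-sided, p = 0.00952). For both miRNAs and the ratio, every 2 ppm O3 pool lay below all pools of FA and 1 ppm O3. All rising pairs were thus pairs of FA and 1 ppm O3, and the counts do not show a fall at each step of concentration. Such trends were computed for 5 measures and their p-values are not adjusted. The directions above are those in RPMMM. When the total left out miR-2137 and the unmatched hairpins, miR-425-5p rose in 25 pairs (exact permutation test, two-sided, p = 0.00952), and under median-of-ratios scaling it rose in 24 (exact permutation test, two-sided, p = 0.0214). In the same settings miR-191-5p rose in 6 and 5 pairs (exact permutation test, two-sided, p = 0.123 and 0.0738), and it rose in 5 with miR-2137 alone left out of the total. With 1 pool left out fewer than 27 pairs remained, so that the counts cannot be set against those above. The RPMMM trend of miR-191-5p then had 2 rising pairs without pool 2 or 3 of FA or of 1 ppm O3 (exact permutation test, two-sided, p = 0.0286). It had 4 without pool 1 of either or any 1 of the 2 ppm O3 pools (exact permutation test, two-sided, p = 0.114).

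**Figure D2:**
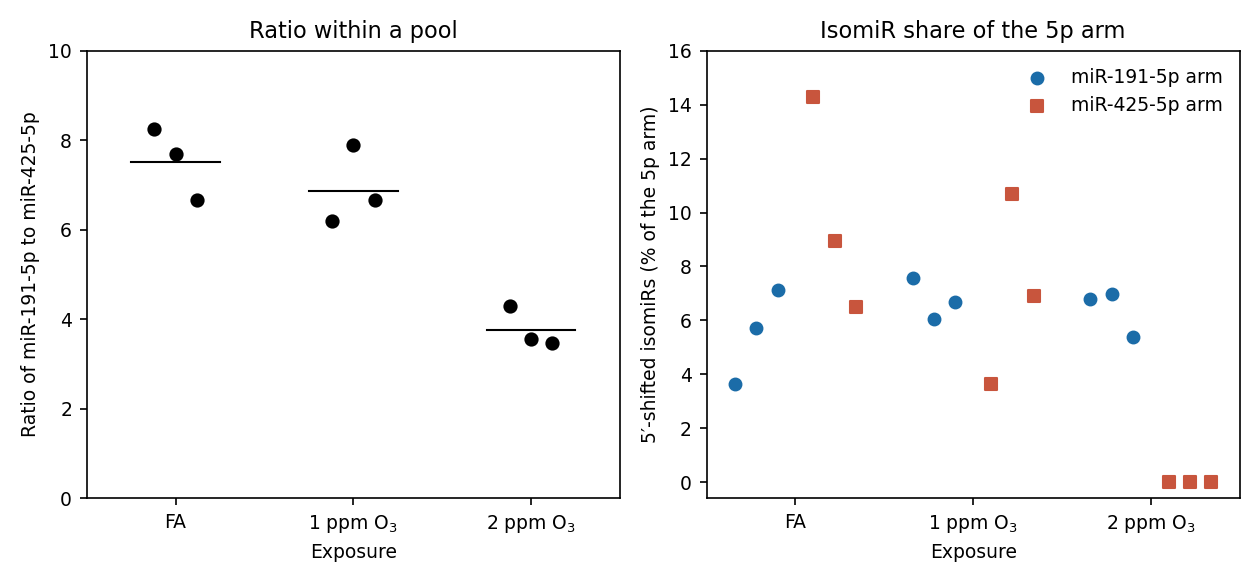
Left, ratio of miR-191-5p to miR-425-5p in each pool, with the geometric mean as a line, for FA, 1 ppm O3 and 2 ppm O3 (3 pools each). Right, 5′-shifted isomiRs in percent of all reads of the 5p arm for miR-191 (circles) and miR-425 (squares). The ratio lies between 6.19 and 8.26 in FA and 1 ppm O3 pools and between 3.46 and 4.30 after 2 ppm O3, and the miR-425-5p isomiRs are all listed at 0 after 2 ppm O3, where the lowest listed value of any entry equals 4.33% to 6.01% of the arm.

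The levels above are shares of a total, and the total itself shifted. miR-2137 together with 8 hairpins whose names had no match in the RefSeq gene table held 0.394% to 0.949% of it in FA, 5.52% to 11% in the 1 ppm O3 pools and 41.6% to 47.2% in the 2 ppm O3 pools. Over the 461 entries the median change in log2 from FA was -0.084 for 1 ppm O3 and -0.83 for 2 ppm O3. Relative to this median, miR-191-5p was at -0.52 and miR-425-5p at 0.49 after 2 ppm O3.

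miR-191-5p was lower after 2 ppm O3 than in FA under each of the 6 scalings, but the size of the difference and the call were not the same. The log2 fold change was -1.29 when scaled to the upper quartile, -1.43 when scaled to miR-23a-3p (which the study took as its RT-qPCR reference for its low variation in these same libraries) and -1.03 with the total taken without miR-2137, all 3 of which were called. Under median-of-ratios scaling it was -0.64 (interval from -0.93 to -0.36, adjusted p = 0.00297 from limma). When the total left out miR-2137 and the unmatched hairpins it was -0.48 (interval from -0.76 to -0.20, adjusted p = 0.0153 from limma). In these 2 settings miR-191-5p differed by less than 2-fold and was not called. Of all entries, 26.4% were called under median-of-ratios scaling.

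For miR-425-5p the sign of the estimate turned with the scaling. Its log2 fold change from FA to 2 ppm O3 was -0.43 when scaled to miR-23a-3p (interval from -0.90 to 0.045). It was -0.29 when scaled to the upper quartile (interval from -0.76 to 0.19). With the total taken without miR-2137 it was -0.030 (interval from -0.43 to 0.37). Each of these intervals holds 0, so that no fall was established. It was 0.36 under median-of-ratios scaling (interval from -0.014 to 0.73, adjusted p = 0.115 from limma). When the total left out miR-2137 and the unmatched hairpins it was 0.52 (interval from 0.14 to 0.91, adjusted p = 0.0378 from limma), a change of less than 2-fold. It was thus not called under any of the 6 scalings. After 1 ppm O3 neither miRNA was called under any of them, with values between -0.28 and 0.11 for miR-191-5p and between -0.15 and 0.24 for miR-425-5p.

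**Figure D3:**
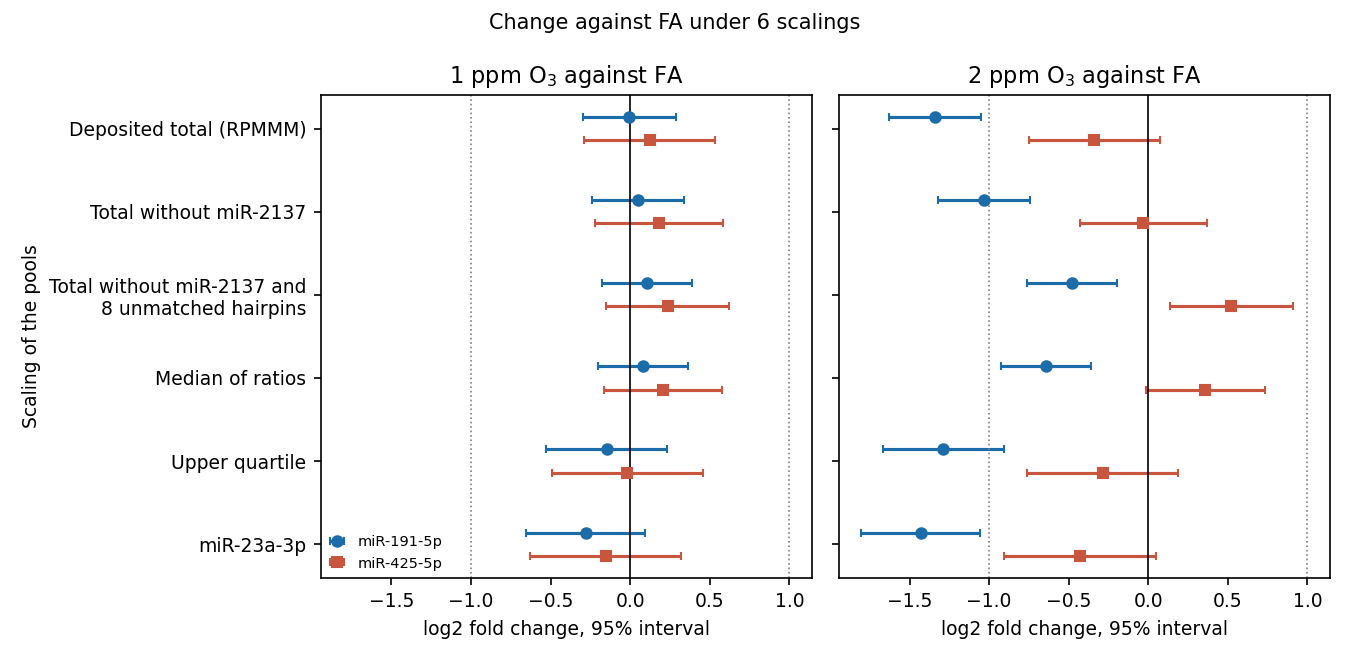
Log2 fold change of miR-191-5p (circles) and miR-425-5p (squares) against FA with its 95% confidence interval under 6 scalings of the pools, after 1 ppm O3 (left) and 2 ppm O3 (right). Dotted lines mark a change of 2-fold. After 2 ppm O3 miR-191-5p lies between -1.43 and -0.48 and miR-425-5p between -0.43 and 0.52, while after 1 ppm O3 all intervals hold 0.

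Evenness was described by the coefficient of variation (CV) over the 9 pools. It was 39.4% for miR-191-5p, rank 132 from the most even of the 461 entries, whose median was 50.6%. For miR-425-5p it was 17.1%, rank 10. These ranks are among entries of all levels above the filter, isomiRs included, and were not matched for level. With each mature miRNA counted once they were 81 for miR-191-5p and 7 for miR-425-5p of 213, with a median of 46.2%. The spread between pools of the same exposure, pooled over the exposures and divided by the mean of all 9 pools, was 12.3% for each (ranks 60 and 61, with a median of 30.4% over all entries). Taken exposure by exposure the 2 miRNAs differed. In FA, 1 ppm O3 and 2 ppm O3 the CV was 14.2%, 8.53% and 9.19% for miR-191-5p. For miR-425-5p it was 6.97%, 10.1% and 19.8%. Under median-of-ratios scaling the CV over the 9 pools was 24.0% for miR-191-5p (rank 86 of 458) and 15.1% for miR-425-5p (rank 23). When the total left out miR-2137 and the unmatched hairpins both were nearly the same, at 20.2% and 19.9%. Without 2 ppm O3 pool 1 the CV of miR-425-5p in RPMMM was 10.7%.

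Beside 12 miRNAs that are often chosen as small RNA references, with each mature miRNA counted once, miR-425-5p was the third most even in RPMMM. miR-191-5p was in place 12 of the 14. miR-23a-3p had the lowest CV with 10.8%, a place that follows from its choice by the study on these data, and miR-25-3p was next with 13.7%. miR-16-5p had 20.5%, let-7a-5p 38.3%, miR-30c-5p 43.5% and miR-423-3p 45.3%. In RPMMM, 3 of the 12 were called lower and 0 higher after 2 ppm O3 than in FA, where 34.7% of 213 miRNAs were called lower. These were let-7a-5p, at -1.32 in log2 (limma, adjusted p = 3.09e-06), miR-30c-5p, at -1.52 (limma, adjusted p = 1.82e-05), and miR-26a-5p, at -1.06 (limma, adjusted p = 1.39e-06). The median of the 12 was -0.53, and that of all 213 was -0.93. Under median-of-ratios scaling, where 17.8% of 214 miRNAs were called, 0 of the 12 were called lower and 2 higher, and their median was 0.17. These were miR-423-5p, at 1.24 in log2 (limma, adjusted p = 0.000631), and miR-423-3p, at 1.45 (limma, adjusted p = 0.000243). Of the 12, 0 were called after 1 ppm O3 against FA, where 6.1% of miRNAs were called, and their median was -0.064 against -0.24 for all. Under median-of-ratios scaling the order changed, with miR-93-5p (13.1%) and miR-103-3p (13.4%) ahead of miR-425-5p, miR-191-5p in place 9, and miR-23a-3p at 25.3%. When the total left out miR-2137 and the unmatched hairpins, miR-425-5p was in place 6 and miR-191-5p in place 7.

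**Figure D4:**
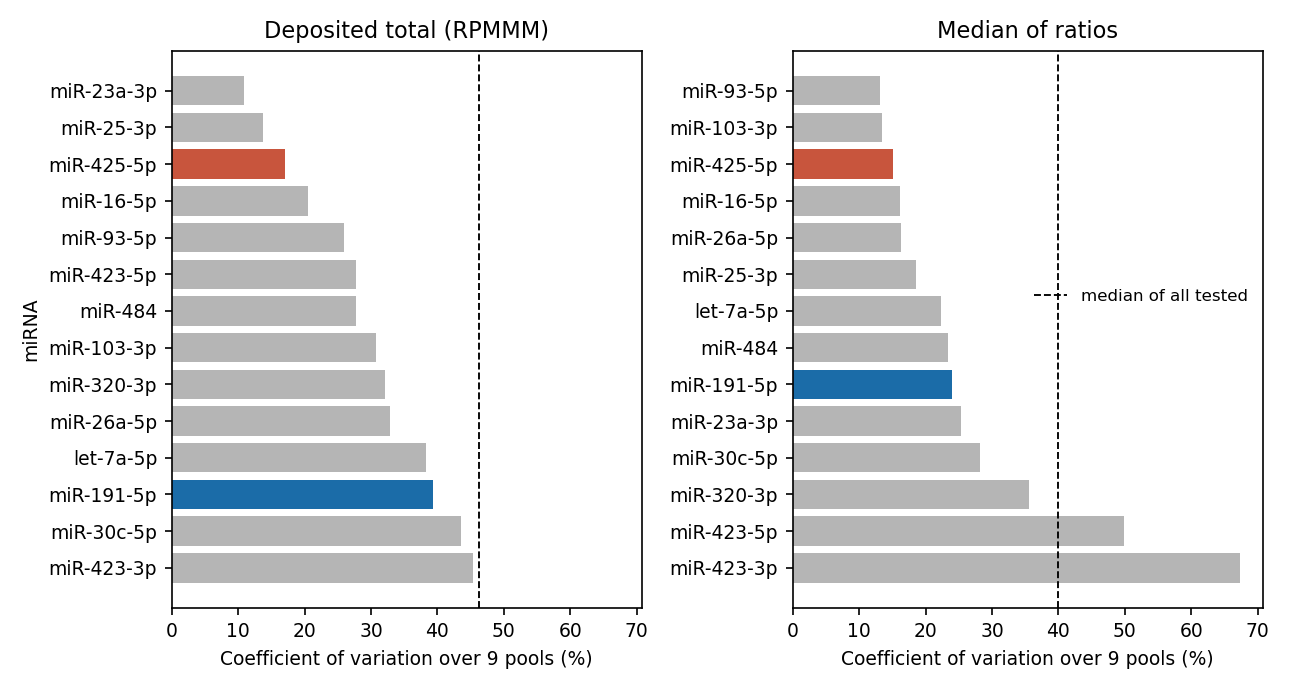
Coefficient of variation over the 9 pools, in percent, of miR-191-5p, miR-425-5p and 12 candidate reference miRNAs (bars, most even at the top), for RPMMM on the left and median-of-ratios scaling on the right. The dashed line is the median of all miRNAs tested, 46.2% and 40.0%. miR-425-5p is in place 3 on both sides, and miR-191-5p in place 12 and 9.

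Taking either miRNA as the reference gave different accounts of the other entries. Scaled to miR-191-5p, 127 entries were called higher and 3 lower after 2 ppm O3 than in FA, which was 27.9% of 466 tested. Scaled to miR-425-5p, 77 were higher and 86 lower of 462 tested. Both of these scalings were added after the data were seen. RPMMM gave 66 higher and 135 lower. Median-of-ratios scaling gave 87 higher and 34 lower, and the total without miR-2137 and the unmatched hairpins gave 95 and 23. Scaled to miR-191-5p, miR-425-5p itself was called higher, with a log2 fold change of 1.00 (interval from 0.61 to 1.39, adjusted p = 0.00164 from limma), at the edge of the threshold. After 1 ppm O3 the counts were closer, with 45 higher and 10 lower when scaled to miR-191-5p, 42 and 19 when scaled to miR-425-5p, and 48 and 13 in RPMMM.

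Shifted forms made up a small part of the 5p arm of miR-191. Their share was 3.64%, 5.73% and 7.14% in the FA pools. It was 7.58%, 6.06% and 6.69% after 1 ppm O3. It was 6.81%, 6.97% and 5.37% after 2 ppm O3, as listed within the range of the other pools. However, miR-191-5p_+_3, _+_4, _+_5 and _-_1 were listed at 0 there, as was _+_2 in pool 2. Each could have held up to about 1.13% to 1.3% of the arm. The summed share after 2 ppm O3 could thus have been above that of the other pools. The mean listed share differed from FA by 0.880 percentage points after 2 ppm O3 (exact permutation test, two-sided, p = 0.7) and by 1.27 after 1 ppm O3 (exact permutation test, two-sided, p = 0.4).

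miR-191-5p_+_1, the most abundant shifted form, held 107.61, 318.13 and 326.78 RPMMM in the FA pools, where pool 1 was far below the others. After 1 ppm O3 it held 306.18, 336.87 and 303.92 RPMMM, and after 2 ppm O3 136.25, 217.67 and 113.66 RPMMM. Its log2 fold change was -0.57 after 2 ppm O3 against FA (interval from -1.60 to 0.45, adjusted p = 0.291 from limma). Between 2 ppm and 1 ppm O3, where its pools did not overlap, it was -1.07 (interval from -2.10 to -0.039, adjusted p = 0.0847 from limma) and was not called. miR-191-5p_+_2 lay between 28.45 and 127.06 RPMMM in FA, between 68.46 and 85.95 RPMMM after 1 ppm O3 and between 0 and 49.73 RPMMM after 2 ppm O3, and was not called in any comparison.

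The shifted forms of miR-425-5p were listed in FA and 1 ppm O3 pools alone. miR-425-5p_+_1 held 111.5, 69.83 and 65.36 RPMMM in FA, and 38.27, 28.82 and 82.47 RPMMM after 1 ppm O3. It was listed at 0 in the 3 pools of 2 ppm O3. Together the isomiRs made up between 6.51% and 14.3% of the 5p arm in FA and between 3.64% and 10.7% after 1 ppm O3. After 2 ppm O3 the lowest value above 0 of any entry equalled between 4.33% and 6.01% of the arm, above the share of this isomiR in 2 of the 1 ppm O3 pools and below its share in each FA pool. With up to 3 such isomiRs below this value, no difference in their summed share was detectable at the depth of the 2 ppm O3 pools.

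The 3p arms were rare. Entries of the miR-191 3p arm were above 0 in 3 of the 9 pools and made up at most 0.901% of the hairpin. Those of the miR-425 3p arm were above 0 in 6 pools, with up to 10.4% of the hairpin, in 2 ppm O3 pool 1. The form with its 5′ end 1 base before the annotated start, miR-425-3p_-_1, was above 0 in 6 pools and miR-425-3p itself in 2. The shifted form held 0, 28.45 and 59.75 RPMMM in FA, 49.92, 0 and 12.78 RPMMM after 1 ppm O3 and 66.46, 44.92 and 0 RPMMM after 2 ppm O3, so that the exposures overlapped. The remaining members, miR-191-5p_+_3, _+_4, _+_5 and _-_1, miR-191-3p and its _+_1 form, miR-425-3p_-_2, miR-425-5p_+_2 and miR-425-5p_-_1, stayed at or below 96.4 RPMMM in every pool and were listed at 0 in the 3 pools of 2 ppm O3. None of them was tested.

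The miRNAs whose log2 RPMMM were most like that of miR-191-5p over the 9 pools were miR-652-3p (Pearson r = 0.994, Spearman rho = 0.983), miR-182-5p (0.989 and 0.983) and miR-26b-5p (0.984 and 0.850), of 211 compared. For miR-425-5p they were miR-10a-3p (0.901 and 0.783), miR-192-5p (0.878 and 0.867) and miR-342-3p (0.873 and 0.867). miR-652-3p had a mean of 12852 RPMMM in FA, 12100 RPMMM after 1 ppm O3 and 4986 RPMMM after 2 ppm O3. Between miR-191-5p and miR-425-5p themselves r was 0.796 (rho = 0.733) in RPMMM and -0.42 (rho = -0.30) under median-of-ratios scaling. Under that scaling the miRNAs most like miR-191-5p were miR-652-3p (r = 0.980), miR-450a-5p (r = 0.943, rho = 0.729) and miR-26b-5p (r = 0.936, rho = 0.883). Those most like miR-425-5p were miR-126-5p (0.765 and 0.867), miR-2137 (0.733 and 0.667) and miR-5126 (0.711 and 0.695), so that none of the latter was shared with RPMMM. miR-450a-5p was listed at 0 in the 2 ppm O3 pools. miR-5126 had an FA mean of 5.213 RPMMM, below the lowest listed value, so that both rest in part on values at 0. miR-10a-3p had a 2 ppm O3 mean of 35.07 RPMMM. The lowest listed values there were 34.34 to 37.3 RPMMM, so that its correlation too rests in part on values at or near this minimum. All these values share the libraries, their totals and their depth, and are given as descriptions.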

How the data were processed

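Small RNA of BALF EVs was sequenced in 9 pools. The authors removed adapters and used miRquant 2.0 with mm9 to count miRNAs and isomiRs. The deposited unit is RPMMM, that is RPM with the miRNA-mapped reads as the total, and each pool has 1 column. Pools were grouped by the labelled exposure. No pair of pools was identical, and correlations between pools of an exposure lay between 0.755 and 0.893 across entries. The exposure records do not tie pools to chamber runs, so that p-values measure the spread between these pools.

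From these values, log2(RPMMM + 1) was compared for the 461 entries whose mean exceeded 50 RPMMM with limma 3.58.1 in R 4.3.3, with a mean per exposure, a variance that could vary with the mean level and Benjamini-Hochberg adjustment over all entries. The fit was tested on simulated log2 values with normal errors. These held no values listed at 0 and no shifting total, so that the test does not cover either feature. The methods of the study give these thresholds and no named test for the sequencing data. RPMMM of 1 read were read from the steps between low values, with the search limited to steps that put the lowest value near 10 reads. Between 71.1% and 86.8% of low values lay within 0.1 read of these steps, too few for a test on counts. All 50 values above 0 of the 2 hairpins under 100 reads lay within 0.1 read of a whole number. Of 299 hairpin names, 291 matched RefSeq genes (GRCm38.p6), which served for names and neighbours alone. Other scalings were set to a geometric mean of 1 over the pools, and the filter was then applied again. Median-of-ratios and upper-quartile scaling used only the entries above 0 in every pool.

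The members, the reference list and the tests were chosen with earlier results of these data known. Named miRNAs were all rows of the 2 hairpins, the 12 candidate references, and the 3 miRNAs with the highest Pearson correlation with either 5p arm. Alternatives were the pseudocount, the filter, the scaling, isomiRs, the model and each pool left out. Python 3.11.15, numpy 2.4.6, pandas 2.3.3 and matplotlib 3.10.9 were used.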

Additional observations from a re-analysis of the deposited data

How the results depend on the processing

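The scaling of the pools changed the results more than the pseudocount, the filter, the trend of the variance, the removal of isomiRs or a model of only the exposures compared, none of which changed a call or a direction of the log2 fold changes. With the total without miR-2137, without miR-2137 and the unmatched hairpins, and with median-of-ratios scaling, miR-191-5p after 1 ppm O3 against FA turned from -0.0044 to 0.052, 0.11 and 0.080. In the latter 2 settings it was no longer called after 2 ppm O3 against FA (-0.48 and -0.64) or against 1 ppm O3 (-0.59 and -0.72), and miR-425-5p turned to 0.52 and 0.36 against FA and to 0.29 and 0.15 against 1 ppm O3. Scaled to miR-425-5p, miR-191-5p was at -0.87 between the concentrations and was not called. Scaled to miR-191-5p, miR-425-5p turned to 1.00 against FA and 0.87 between the concentrations. Both of these settings were added after the data were seen. After 1 ppm O3 against FA, miR-425-5p turned to -0.019 with the upper quartile and -0.15 with miR-23a-3p. The CV of miR-191-5p was 33.2%, 20.2% and 24.0% with the 3 settings named first, and that of miR-425-5p 12.7% and 19.9% with the first 2. The pairs rising for miR-191-5p were 5, 6 and 5 in these 3 settings, no longer past 0.05. For miR-425-5p they were 16, 25 and 24, and 4 with miR-23a-3p (two-sided exact permutation tests gave p = 0.668, 0.00952, 0.0214 and 0.0417). The cause was not tested.

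With each pool left out in turn, the log2 fold change of miR-191-5p lay between -0.078 and 0.11 after 1 ppm O3 and between -1.41 and -1.23 after 2 ppm O3 against FA, that of miR-425-5p between 0.052 and 0.20 and between -0.43 and -0.16, and the ratio after 2 ppm O3 between -1.10 and -0.93. The CV lay between 33.3% and 42.5% for miR-191-5p and between 10.7% and 18.3% for miR-425-5p. The pairs rising lay between 2 and 4 and between 4 and 7, of fewer pairs than with all pools. No paired analysis was possible because the labels give no replicate numbers that pair pools across exposures. Depth limits the 3p arms and most isomiRs after 2 ppm O3, where no value above 0 lay under 34.34 RPMMM.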
